A study of Mus musculus with 24 samples.

Results

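*Adipoq*, *Lep*, *Retn*, *Cfd*, *Plin1*, *Cidec*, *Fabp4*, *Scd1* and *Pck1* are genes known from adipocytes, and their RNA was followed here in skeletal muscle. These 9 genes were taken by name from the gene column of the array, where 11 of 55681 probes read them. Of the 9 genes, 7 passed the filter on dim probes, a mean Cy5 signal over 2 times the local background, as did 9104 of the 22328 genes with a probe. *Plin1* and *Lep* were under it. The 9 were chosen from known adipocyte genes with their Hypox and Norm values on these arrays, and the correlations among them, already seen, so that the differences, P-values and correlations below describe these 24 arrays and are not independent evidence.

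The question of the comparison was how muscle of diet-fattened mice responds to acute normobaric hypoxia. Total RNA came from the whole ground *M. gastrocnemius* of male C57BL/6JOlaHsd mice, 12 in normoxia at 20.9% O2 (Norm) and 12 in hypoxia at 12% O2 (Hypox), both killed after 6 h of exposure. All mice had arrived at 10 weeks of age, were housed individually, had eaten a diet with 10% of energy as fat for 3 weeks and one with 40% for 6 weeks, were 18 weeks old at exposure and had been brought into a fasted state by restricted feed. Each of 24 arrays carried the RNA of 1 mouse in Cy5 and a pool of all samples in Cy3. Every value below, unless said otherwise, is the log2 ratio of the mouse over that pool, normalized by loess within the array, with 0 at the level of the pool.

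White adipocytes store triglyceride in 1 large droplet and release fatty acids from it in fasting. They secrete adiponectin, leptin, resistin and the complement protease adipsin into the blood, and coat the droplet with proteins such as perilipin 1. Skeletal muscle holds a small and variable number of them between its fibers and around its vessels and nerves. Several of these genes are not exclusive to them, since *Fabp4* is also made by endothelium and macrophages, *Scd1* and *Pck1* by liver, and *Retn* in humans mainly by white blood cells. In the RNA of a whole muscle, fewer adipocytes and less RNA per adipocyte cannot be told apart.

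Promoter sequences were available for 7 of the 9 genes (RefSeq, build GRCm38.p6). Those of *Adipoq*, *Cfd* and *Cidec* are shown because these genes moved together over the 24 arrays, with a Pearson r of 0.70 to 0.80 between pairs. Without Norm replicate 12 these values were lower, from 0.46 for *Cfd* with *Cidec* to 0.69 for *Adipoq* with *Cidec*. The sequence of *Plin1* is shown because it holds 2 motif matches. Each is the stretch of 250 bases that ends at the base before the transcription start, written 5′ to 3′ along the gene: *Adipoq* at chr16:23146286-23146535 (plus strand), *Cfd* at chr10:79890603-79890852 (plus strand), *Cidec* at chr6:113435761-113436010 (minus strand) and *Plin1* at chr7:79732777-79733026 (minus strand). Capitals mark matches, on either strand, to a CCAAT box (CCAAT, or ATTGG on the other strand) or to TTGCNNAA, a spelling of the site of the C/EBP factors of fat cell differentiation.
Adipoq: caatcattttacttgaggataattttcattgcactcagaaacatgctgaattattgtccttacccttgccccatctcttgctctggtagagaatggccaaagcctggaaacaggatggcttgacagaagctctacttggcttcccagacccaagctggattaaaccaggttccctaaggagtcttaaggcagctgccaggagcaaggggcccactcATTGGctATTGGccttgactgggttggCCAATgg
Cfd: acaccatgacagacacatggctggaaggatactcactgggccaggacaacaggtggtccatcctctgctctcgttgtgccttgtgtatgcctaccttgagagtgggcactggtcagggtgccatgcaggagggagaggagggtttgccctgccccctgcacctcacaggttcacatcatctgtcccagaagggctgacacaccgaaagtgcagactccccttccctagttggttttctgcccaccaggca
Cidec: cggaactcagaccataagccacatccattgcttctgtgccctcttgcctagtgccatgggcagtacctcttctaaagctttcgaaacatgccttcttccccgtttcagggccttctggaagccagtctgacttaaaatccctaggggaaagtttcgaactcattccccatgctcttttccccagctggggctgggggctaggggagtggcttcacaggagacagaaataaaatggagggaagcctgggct
Plin1: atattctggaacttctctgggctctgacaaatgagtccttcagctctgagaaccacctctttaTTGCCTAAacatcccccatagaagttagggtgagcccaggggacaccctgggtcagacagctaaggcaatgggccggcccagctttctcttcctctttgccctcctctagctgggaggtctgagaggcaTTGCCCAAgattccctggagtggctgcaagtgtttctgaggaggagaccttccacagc

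The *Adipoq* stretch held CCAAT at 34, 27 and 7 bases before the start, and the *Plin1* stretch TTGCNNAA at 187 and 58. The *Lep* stretch, not shown, held TTGCNNAA at 55. No match was found in the stretches of *Cfd*, *Cidec*, *Retn* and *Pck1*. None of the 7 stretches held AGGTCA, the half-site bound by PPARγ with its partner RXR, or ACGTG, the core of the hypoxia response element. Of the stretches of equal length of 27025 genes, 34.5% held CCAAT, 9.55% TTGCNNAA, 13.8% AGGTCA and 16.5% ACGTG. The motifs searched overlap with none of the others in these stretches, and a match is a description of letters and not a bound site.

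The arrays lay on 6 slides with 2 Norm and 2 Hypox arrays each, and the share of spots well above background in Cy5 lay between 9.42% and 37.8%. Mean Cy5 signals of the arrays spanned 58.3 to 933 for Norm and 63.5 to 1010 for Hypox. Norm replicate 12, on slide 6, had the highest of these Norm means and stood apart in the adipocyte genes. It was the highest of all 24 arrays in 6 of the 7 genes past the filter, *Fabp4* being the exception, while it was the highest in 4.23% of the 9104 genes tested. The mean of the 7 genes was 0.98 on that array, and the next highest, Norm replicate 7, was at 0.13. Over all genes its log2 ratios correlated with those of its most similar array at 0.50, where the other arrays had values from 0.49 to 0.82. With the log2 mean Cy5 signal of the arrays, the mean of the 7 genes had a Pearson r of 0.07 and a Spearman rho of -0.22 over 24 arrays, and an r of -0.24 without Norm replicate 12. Correlations with the mean of the 7 genes are given below with and without that array.

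All 7 genes past the filter had a lower mean in Hypox than in Norm, where 41.2% of the 9104 genes tested had a negative difference, but with each array centred on its median in place of loess 4 of the 7 did, *Fabp4*, *Cidec* and *Pck1* turning positive. Their log2 differences, Hypox minus Norm, ran from -0.56 to -0.08 with a median of -0.24, beside a median of 0.03 over all genes. With limma's moderated test, 3 of the 7 had a P-value under the study's threshold of 0.05, all lower in Hypox (background: 5.07% of all genes passed as lower and 12.2% in either direction). After Benjamini-Hochberg adjustment over all genes, 0 of the 7 passed (background 0.341%). Without Norm replicate 12 the median difference was -0.13, 1 of the 7, *Cfd*, had a P-value under 0.05 (background 5.36% lower) and 0 passed after adjustment (background 0.582%). With the log2 values that the authors deposited, 8 of 9 genes were lower in Hypox and 0 of 9 had a P-value under 0.05 (limma), and with median centring 0 of 7 had one. The median difference of all genes was 0.03 with the deposited values and 0.25 with median centring. Shares of all genes are not given for either, so that their counts stand without a background. Since the list was chosen with this contrast known, nothing further is read from these counts.

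**Figure D1:**
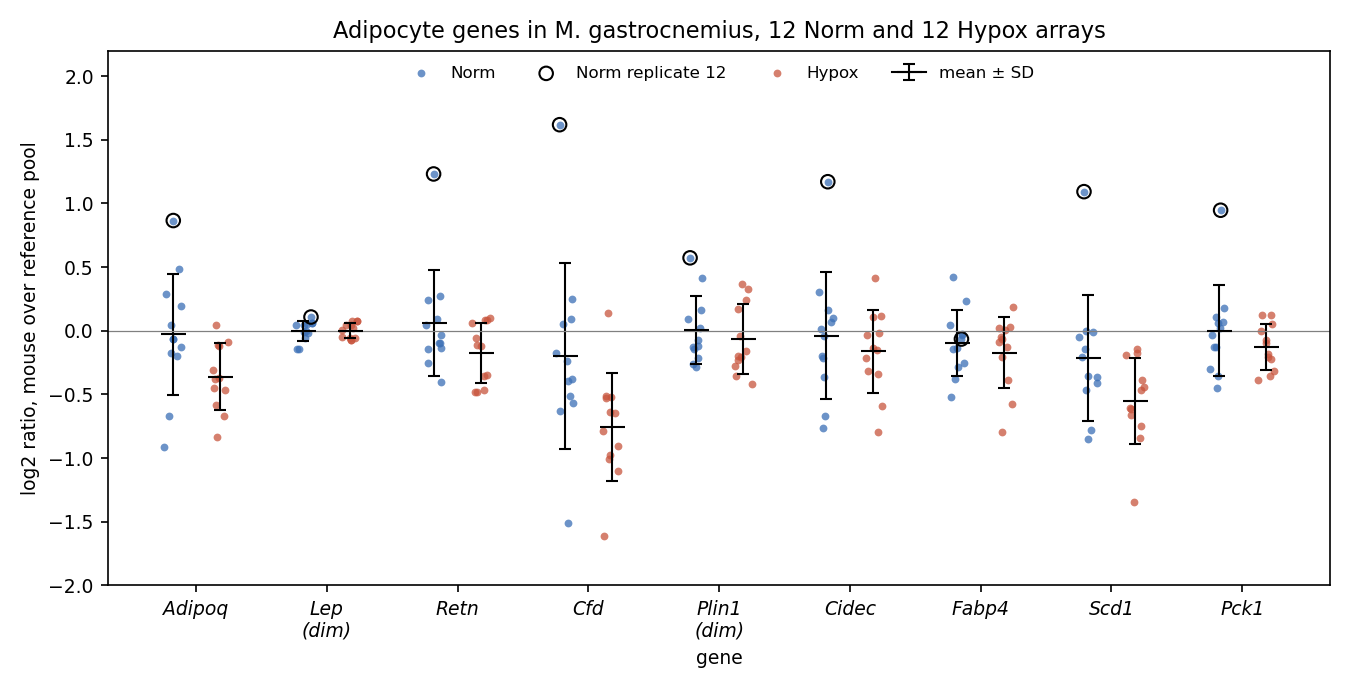
Log2 ratio of the mouse over the reference pool (vertical axis) for the 9 adipocyte genes (horizontal axis) on 12 Norm (blue) and 12 Hypox (red) arrays, 1 point per array, with mean ± SD in black, Norm replicate 12 ringed, and genes under the filter marked dim. The ringed array lies above every other array in *Adipoq*, *Retn*, *Cfd*, *Plin1*, *Cidec*, *Scd1* and *Pck1*, and within the group in *Fabp4*, and the 2 groups overlap in every gene.

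Of the secreted proteins, adiponectin sensitises liver and muscle to insulin, and its gene is expressed almost only in adipocytes. *Adipoq* (NM_009605, probe on mm9 chr16:23157576-23157635) spanned -0.92 to 0.87 (median -0.07) across the Norm mice and -0.83 to 0.05 (median -0.37) across the Hypox mice. The groups overlapped, 11 of 12 Hypox arrays lay below the Norm median and 5 Norm arrays above the highest Hypox array. The group means were -0.03 ± 0.48 (SD, n = 12) for Norm and -0.36 ± 0.26 (SD, n = 12) for Hypox, a difference of -0.33 (standard error 0.15, P-value = 0.0308, adjusted P-value = 0.348, limma). Without Norm replicate 12 the difference was -0.25 (P-value = 0.0681), and leaving out Norm replicate 3 or 7 or Hypox replicate 1 or 9 also took the P-value over 0.05. *Adipoq* was well above background on 10 Norm and 11 Hypox arrays.

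Adipsin, the product of *Cfd*, is the serine protease of the alternative complement pathway and one of the most abundant transcripts of white fat. *Cfd* (NM_013459, chr10:79355302-79355361) was well above background on all 24 arrays and spanned -1.51 to 1.62 (median -0.31) across the Norm mice and -1.61 to 0.14 (median -0.71) across the Hypox mice. In Norm, 1 array lay at 1.62 and the next at 0.25, and 11 of 12 Hypox arrays were below the Norm median. Its group means were -0.20 ± 0.73 (SD, n = 12) for Norm and -0.76 ± 0.42 (SD, n = 12) for Hypox. The difference of -0.56 (standard error 0.22, P-value = 0.0176, adjusted P-value = 0.279, limma), a linear ratio of 0.679, had rank 43 from the lowest of all 9104. It was -0.39 without Norm replicate 12 (P-value = 0.0305), and the P-value stayed under 0.05 with each of the 24 arrays left out in turn. The result depended on the processing. The P-value was 0.00591 with the scanner software's processed signals and 0.015 with Cy5 alone (limma). With the deposited values the difference was -0.40 (P-value = 0.26, limma) and with median centring -0.185 (P-value = 0.73, limma). The SD of *Cfd* in Norm was larger than that of 98.9% of the genes tested, and of 95.8% without Norm replicate 12.

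Resistin is a cysteine-rich hormone of mouse white fat. *Retn* had 2 probes past the filter, of which the brighter (NM_001204959, chr8:3659757-3659816) stood for the gene. That probe spanned -0.40 to 1.23 (median -0.06) across the Norm mice and -0.48 to 0.10 (median -0.12) across the Hypox mice, with 3 Hypox arrays below the lowest Norm array and 3 Norm arrays above the highest Hypox array. The difference was -0.24 (standard error 0.13, P-value = 0.0824, adjusted P-value = 0.473, limma) and -0.13 without Norm replicate 12 (P-value = 0.178). With the slide as a block the P-value was 0.0390. The second probe (chr8:3657312-3657371) spanned -0.51 to 0.75 (median -0.11) across the Norm mice and -0.52 to 0.05 (median -0.34) across the Hypox mice, with 11 of 12 Hypox arrays below the Norm median. Its difference was -0.26 (standard error 0.098, P-value = 0.0138, adjusted P-value = 0.220 over all probes past the filter, limma, background 6.6% of probes lower), so that the 2 probes fell on opposite sides of the unadjusted threshold.

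Leptin reports the size of the fat store to the hypothalamus, and its RNA is low in fasting. *Lep* (NM_008493, chr6:29023234-29023293) was read by 10 spots per array and was at 1.36 times the background in Cy5. On no array was the majority of its 10 spots well above background, and 12 of 24 arrays had at least 1 such spot, with at most 4. Its array means lay between -0.15 and 0.11 in Norm and between -0.08 and 0.08 in Hypox. The SD of the 24 array means was 0.07, and the median SD of the 10 spots within an array 0.15. No fold is given for *Lep*, which was not well above background in either group.

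Of the proteins of the lipid droplet, perilipin 1 guards the stored triglyceride from lipases until it is phosphorylated in fasting. *Plin1* (NM_175640, chr7:86866112-86866171) was at 1.77 times the background and well above background on 5 Norm and 4 Hypox arrays. It spanned -0.29 to 0.57 (median -0.10) across the Norm mice and -0.42 to 0.37 (median -0.18) across the Hypox mice, and the groups overlapped over nearly their whole range. The difference was -0.07 (standard error 0.10, P-value = 0.514 over all probes without a filter, limma). *Plin1* too was highest on Norm replicate 12.

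*Cidec* encodes FSP27, which joins small droplets into the single large one of white adipocytes. Its brighter probe (NM_178373, chr6:113374630-113374689) spanned -0.77 to 1.17 (median -0.02) across the Norm mice and -0.80 to 0.42 (median -0.14) across the Hypox mice. Norm replicate 12 lay at 1.17 and the next Norm array at 0.30, below the highest Hypox array. The difference was -0.12 (standard error 0.16, P-value = 0.442, adjusted P-value = 0.778, limma) and -0.02 without Norm replicate 12 (P-value = 0.912). A second probe (chr6:113378116-113378175) was at 1.31 times the background, well above it on 1 of 24 arrays, and correlated with the first at 0.54.

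*Fabp4*, the fatty acid carrier of adipocytes, capillary endothelium and macrophages, was the one gene past the filter without its highest value on Norm replicate 12. The probe (NM_024406, chr3:10204452-10204511) was well above background on all 24 arrays and spanned -0.52 to 0.42 (median -0.10) across the Norm mice and -0.80 to 0.18 (median -0.08) across the Hypox mice. Only 5 of 12 Hypox arrays lay below the Norm median, and Norm replicate 12 ranked 12 of 24. The difference was -0.08 (standard error 0.11, P-value = 0.485, adjusted P-value = 0.795, limma), and -0.07 without Norm replicate 12.

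Of the enzymes, stearoyl-CoA desaturase 1 makes oleate and palmitoleate for triglyceride synthesis. *Scd1* (NM_009127, chr19:44469387-44469446) spanned -0.85 to 1.09 (median -0.28) across the Norm mice and -1.35 to -0.15 (median -0.54) across the Hypox mice. All 12 Hypox arrays were below the pool, but so was every Norm array except Norm replicate 12, the next highest being at -0.002. Above the highest Hypox array lay 5 Norm arrays. The group means were -0.21 ± 0.50 (SD, n = 12) for Norm and -0.55 ± 0.34 (SD, n = 12) for Hypox, a difference of -0.34 (standard error 0.16, P-value = 0.0431, adjusted P-value = 0.389, limma). Without Norm replicate 12 it was -0.22 (P-value = 0.0889), and the P-value stayed under 0.05 in 12 of the 24 fits that each left out 1 array.

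Phosphoenolpyruvate carboxykinase 1 makes the glycerol backbone for triglyceride in fat and glucose in liver. *Pck1* (NM_011044, chr2:172984307-172984366) was the dimmest of the 7, at 2.5 times the background and well above it on 6 Norm and 7 Hypox arrays. It spanned -0.45 to 0.95 (median -0.01) across the Norm mice and -0.39 to 0.12 (median -0.14) across the Hypox mice. The difference was -0.13 (standard error 0.11, P-value = 0.264, adjusted P-value = 0.663, limma) and -0.04 without Norm replicate 12 (P-value = 0.630).

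Within slides, where 2 Hypox arrays were set against 2 Norm arrays, *Scd1* had a negative difference on 6 of 6 slides, from -0.91 to -0.002. It was -0.018 on slide 4 and -0.002 on slide 1, where no array had *Scd1* well above background. Over all slides *Scd1* was well above background on 10 Norm and 10 Hypox arrays, *Retn* on 9 and 9 and *Cidec* on 10 and 11. *Adipoq* was lower on 5 slides, from -0.90 to 0.06, and *Cfd* on 5, from -1.16 to 0.23. *Retn*, *Fabp4* and *Pck1* were lower on 4 slides and *Cidec* on 3. Some of these directions come from dim readings. On slide 1 *Retn* was well above background on no array, and *Adipoq* and *Cidec* only on Hypox replicate 12. *Pck1* was well above background on no array of slide 1 or slide 4. The slide of Norm replicate 12, slide 6, gave the lowest value in *Adipoq*, *Retn*, *Cfd*, *Cidec*, *Scd1* and *Pck1*, while *Fabp4* was 0.23 higher in Hypox there. With the slide as a block, 4 of the 7 were under a P-value of 0.05 (background 6.16% lower), *Retn* being added, and 0 passed after adjustment (background 0.769%).

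**Figure D2:**
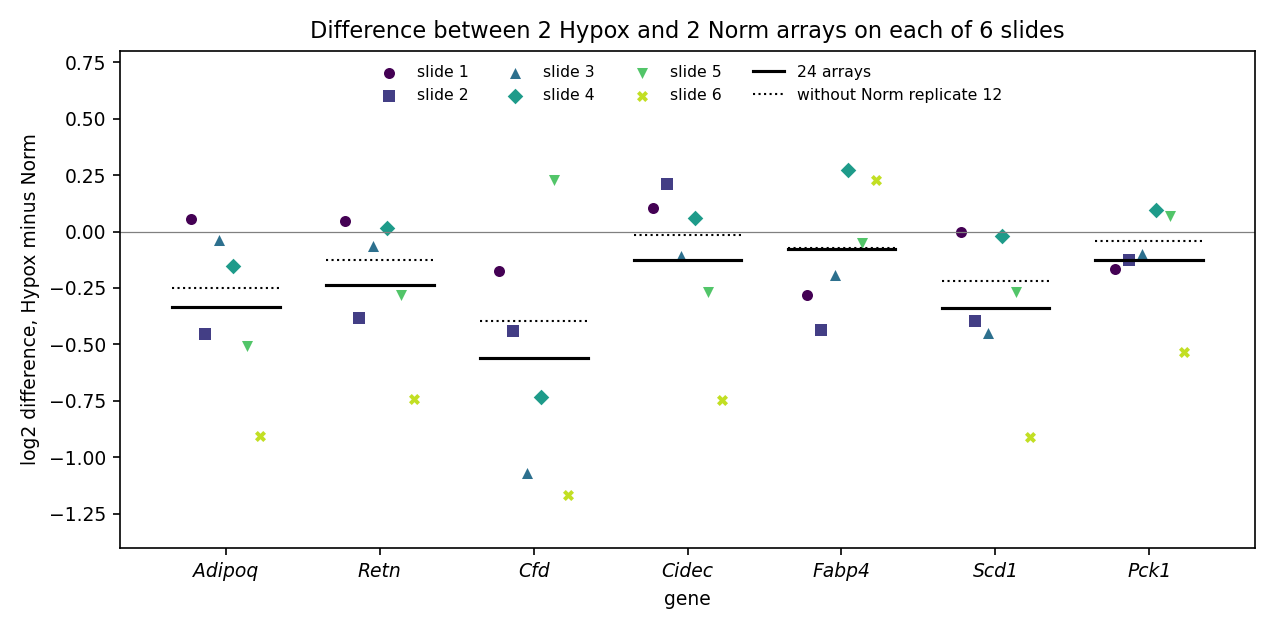
Log2 difference, Hypox minus Norm (vertical axis), of the 7 adipocyte genes past the filter (horizontal axis) on each of 6 slides, 1 marker per slide for 2 Hypox against 2 Norm arrays. The solid line is the difference over 24 arrays and the dotted line that without Norm replicate 12, and slide 6 is the lowest marker in 6 of the 7 genes.

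The genes moved together between arrays to different degrees. Without Norm replicate 12, *Retn*, *Pck1* and *Fabp4* followed the others less than *Scd1*, *Adipoq*, *Cidec* and *Cfd* did. Over the 24 arrays, the 21 pairs of the 7 genes had a median Pearson r of 0.65 (0.03 to 0.85) and a median Spearman rho of 0.39. The 15 pairs without *Fabp4* lay between 0.59 and 0.85, and the 6 pairs with it between 0.03 and 0.38, a contrast that was gone without Norm replicate 12 (median r of 0.36 for the 15 pairs and 0.39 for the 6). *Cidec* with *Scd1* (r of 0.85), *Adipoq* with *Scd1* (0.84) and *Cfd* with *Scd1* (0.83) were the highest pairs. These correlations are over arrays that share the reference pool, the loess fit and, in groups of 4, a slide.

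Much of the size of r lay in 1 array. Without Norm replicate 12 the median r of the 21 pairs was 0.38 (-0.02 to 0.76), and without it and Hypox replicate 2, the 2 arrays farthest from the median of the mean of the genes, 0.32 (0.08 to 0.85). *Adipoq* with *Scd1* (0.76), *Cidec* with *Scd1* (0.72), *Adipoq* with *Cidec* (0.69) and *Cfd* with *Scd1* (0.67) kept a high r without Norm replicate 12. *Retn* and *Pck1* did not, with a value of 0.16 between them and values from 0.17 to 0.48 with *Adipoq*, *Cfd*, *Cidec* and *Scd1*. With the means of each slide removed the median was 0.67, and with the means of each group on each slide removed 0.66 (Spearman rho 0.45). Since 2 arrays make up a group on a slide, Norm replicate 12 and its partner Norm replicate 6 mirror each other in the last of these, and without both the median was 0.43 (-0.01 to 0.88, Spearman rho 0.35).

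**Figure D3:**
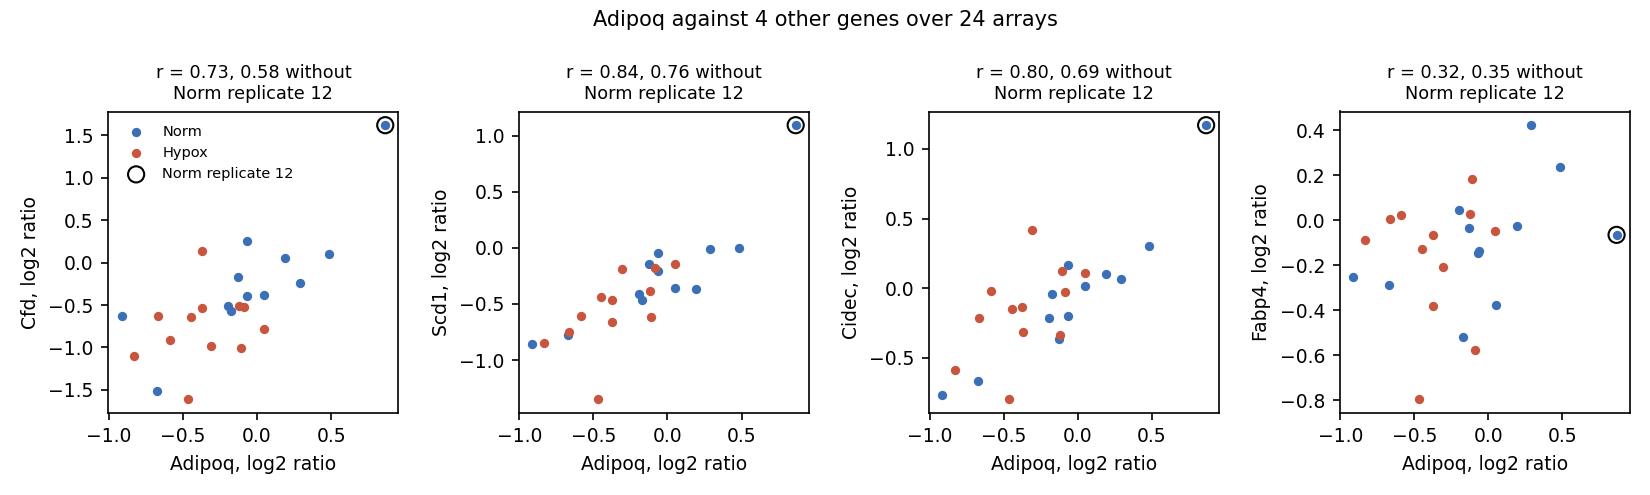
*Adipoq* (horizontal axes) against *Cfd*, *Scd1*, *Cidec* and *Fabp4* (vertical axes), log2 ratio over the reference pool, 1 point per array for 12 Norm (blue) and 12 Hypox (red) arrays, with Norm replicate 12 ringed. *Scd1* follows *Adipoq* along the whole range, with an r of 0.84, while *Fabp4* spreads widely, with an r of 0.32.

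Each gene was also set against the mean of the other genes past the filter. *Scd1* correlated with it at 0.92, *Adipoq* at 0.85, *Cfd* and *Cidec* at 0.82, *Pck1* at 0.73, *Retn* at 0.68 and *Fabp4* at 0.34. Without Norm replicate 12 these values were 0.83 for *Scd1*, 0.79 for *Adipoq*, 0.67 for *Cidec*, 0.63 for *Cfd*, 0.47 for *Fabp4*, 0.40 for *Pck1* and 0.29 for *Retn*. The dim genes had values of 0.56 (*Plin1*) and 0.46 (*Lep*), and 0.35 each without Norm replicate 12. Within the 12 Hypox arrays, which do not hold Norm replicate 12, *Scd1* had a value of 0.81, *Adipoq* and *Cidec* of 0.54, *Fabp4* of 0.42, *Pck1* of 0.40, *Cfd* of 0.35 and *Retn* of -0.02. The second *Retn* probe correlated with the first at 0.79, and at 0.52 without Norm replicate 12.

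By the mean of the 7 genes, the lowest arrays were Hypox replicate 2 (-0.76), Norm replicate 5 (-0.61), Norm replicate 10 (-0.61) and Hypox replicate 1 (-0.55). Low arrays occurred in both groups. The mean spanned -0.61 to 0.98 (median -0.13) across the Norm mice and -0.76 to -0.09 (median -0.29) across the Hypox mice.

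**Figure D4:**
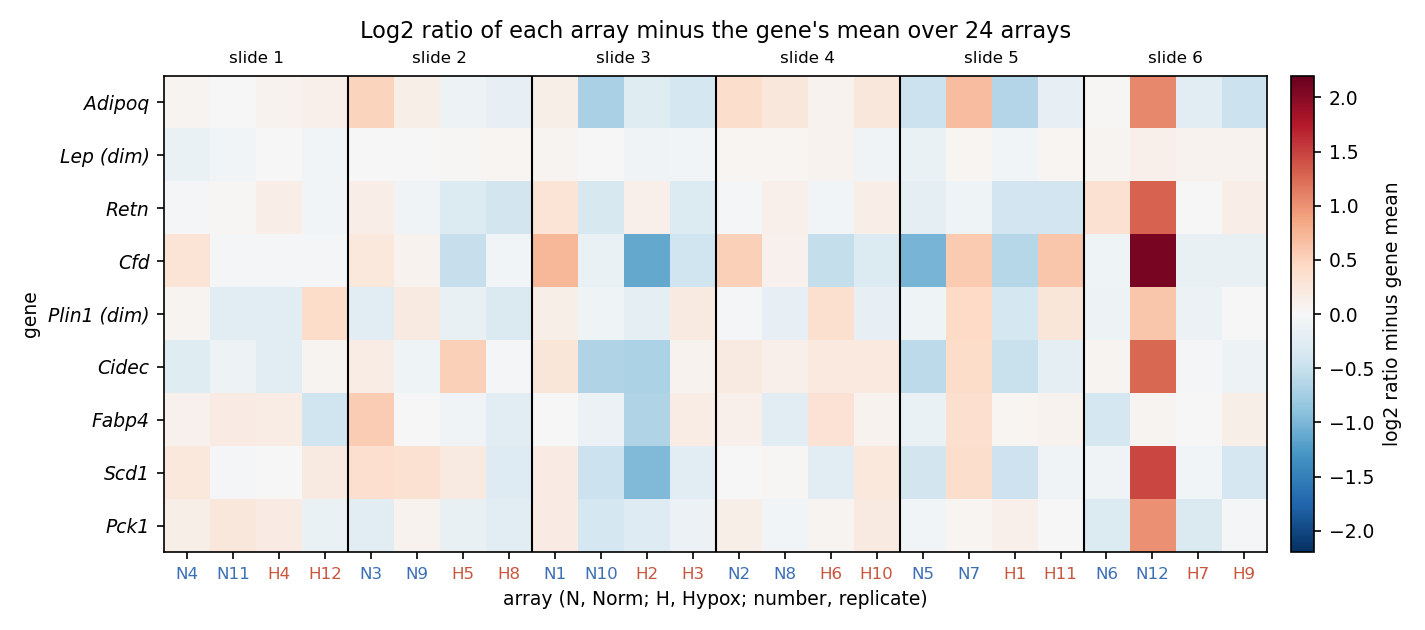
Log2 ratio of each array minus the mean of the gene over 24 arrays (colour, from blue for low to red for high) for the 9 adipocyte genes (rows) on 24 arrays (columns, N for Norm and H for Hypox with the replicate number), ordered by slide. The column of Norm replicate 12 on slide 6 is red in every gene but *Lep* and *Fabp4*, which are near their means, and Hypox replicate 2 on slide 3 is blue in *Cfd*, *Scd1*, *Cidec* and *Fabp4*.

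Among all other genes tested, the 10 most like the mean of the 7 genes by Pearson r over 24 arrays were *Cyp2e1* (0.87), *Rbp4* (0.85), *Acp5* (0.84), *Prkar2b* (0.83), *C4b* (0.82), *Prx* (0.79), *Cntf* (0.73), *Trf* (0.73), *Sncg* (0.72) and *Hp* (0.71). The median over 9097 genes was 0.05, and 95% of them lay between -0.54 and 0.47. *Cyp2e1*, a cytochrome P450 of liver and fat, was at 1.19 on Norm replicate 12, and *Rbp4*, which carries retinol in blood, at 1.04. Without Norm replicate 12, *C4b* (0.77), a complement component, *Acp5* (0.76), an acid phosphatase of bone-resorbing cells and macrophages, and *Prkar2b* (0.70), a regulatory subunit of protein kinase A, were still among the 10 highest, and the other 7, at 0.57 to 0.67, were not. Their places went to *Jmjd1c*, *Cd34*, *Cox7c*, *Rsrc2*, *Ier5l*, *Cav2* and *Lsm8* (0.69 to 0.77), where 95% of all other genes lay between -0.55 and 0.51. None of the 10 most alike over 24 arrays passed an adjusted P-value of 0.05 between Hypox and Norm, and *Prx* had a difference of -0.28 (P-value = 0.0280, adjusted P-value = 0.336, limma).

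Other genes of white adipocytes, from a list written from general knowledge, are given by their counts and their r, which depended on the processing. Of 27 genes with a probe, 8 passed the filter, and 0 of the 8 had a P-value under 0.05. Their median difference was 0.06 and their median r with the mean of the adipocyte genes 0.11, beside 0.03 and 0.05 over all genes. That r was -0.01 without Norm replicate 12 (0.00 over all genes), 0.42 with the scanner software's processed signals (0.21 over all genes), 0.27 with Cy5 alone (0.16) and 0.25 with the means of each group on each slide removed (0.08). *Sncg*, γ-synuclein, had an r of 0.72 (0.57 without Norm replicate 12), *Rarres2*, which encodes chemerin, of 0.34 (0.08) and *Adig*, adipogenin, of 0.32 (0.26). *Pparg*, the nuclear receptor that drives fat cell differentiation, had an r of 0.00 (-0.30 without Norm replicate 12) and a difference of 0.07 (P-value = 0.232, limma). *Plin4*, a droplet protein that muscle makes too, had an r of -0.15 (-0.13) and *Ces1d*, a carboxylesterase, of -0.35 (-0.17). The 19 genes under the filter included *Lipe*, at 1.68 times the background, *Cebpa*, at 1.73, and *Adrb3*, at 1.20 and well above background on 0 arrays.

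Lipogenic genes of the list, which share the pathway of *Scd1*, had a median difference of -0.02 over 13 genes tested, and 0 had a P-value under 0.05. *Acaca*, the acetyl-CoA carboxylase of fatty acid synthesis, had an r of 0.43 with the mean of the adipocyte genes (0.26 without Norm replicate 12) and *Dgat2*, the last enzyme of triglyceride synthesis, of 0.41 (0.29), while *Gpam* went from -0.21 to 0.18 when that array was left out. *Fasn* was under the filter at 1.26 times the background. Genes of lipid uptake and lipolysis that muscle shares with fat had a positive difference in 12 of 12 tested (median 0.22), where 41.2% of all genes had a negative one, and 4 had a P-value under 0.05, all higher in Hypox (background 7.14%), with 0 after adjustment. *Angptl4*, the inhibitor of lipoprotein lipase, was higher by 0.66 (P-value = 0.000318, adjusted P-value = 0.0625, limma), with an r of -0.36 (-0.46 without Norm replicate 12). *Plin3*, a droplet coat protein, was higher by 0.26 (P-value = 0.0174, adjusted P-value = 0.278, limma), with an r of 0.41 (0.11). *Lpl*, lipoprotein lipase itself, had the highest r of these over 24 arrays, 0.51 (0.29), and a difference of 0.05 (P-value = 0.703, limma), while *Plin2* had the lowest, -0.55 (-0.17). In the brown adipocyte list 3 of 11 genes passed the filter. Of the 3, 1 had a P-value under 0.05, higher in Hypox (background 7.14%), and 0 passed after adjustment. That gene, *Cidea*, a relative of *Cidec*, was higher by 0.35 (P-value = 0.00287, adjusted P-value = 0.161, limma), with an r of 0.15 (0.08). *Ucp1* of the same list was under the filter at 1.21 times the background and well above it on 0 arrays.

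**Figure D5:**
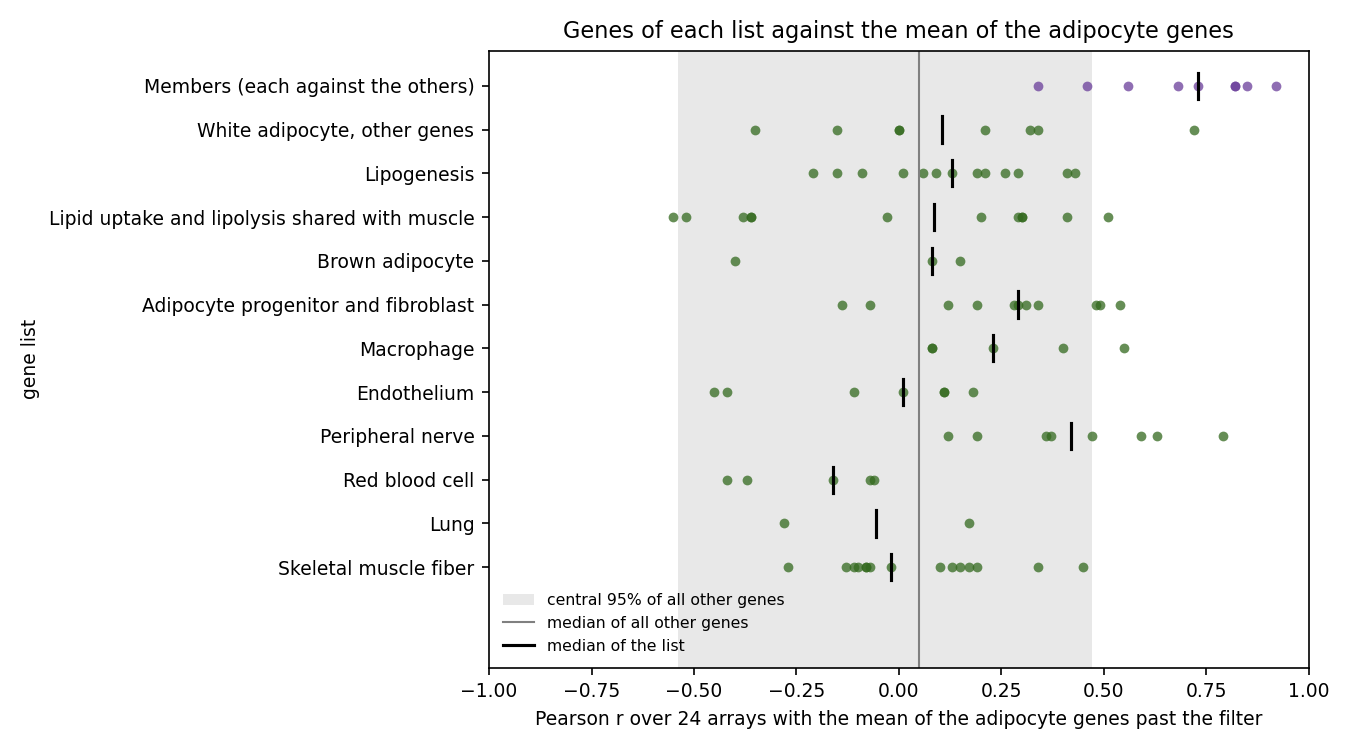
Pearson r over 24 arrays (horizontal axis) of each gene past the filter with the mean of the 7 adipocyte genes, 1 point per gene, by gene list (vertical axis). The top row shows the 9 adipocyte genes, each against the mean of the others, the black bar is the median of a list, the grey line the median of all other genes (0.05) and the grey band the range of 95% of them. The adipocyte genes lie from 0.34 to 0.92, and of the lists the peripheral nerve genes have the highest median, 0.42 (0.31 without Norm replicate 12).

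Markers of other cells that a muscle sample holds moved with the adipocyte genes to different degrees. The 8 of 10 peripheral nerve genes past the filter had the highest median r of the lists, 0.42 (0.31 without Norm replicate 12), and all 8 had a negative difference (median -0.14, or 0.03 against 0.25 over all genes with median centring), 3 of them with a P-value under 0.05 (1 without Norm replicate 12) and 0 after adjustment, beside 41.2% negative and 5.07% lower over all genes. *Prx*, periaxin of Schwann cells, had an r of 0.79 (0.61). The mean of the nerve genes spanned -0.24 to 0.41 across Norm and -0.47 to 0.14 across Hypox, with the highest value on Norm replicate 12. Of 11 genes of adipocyte progenitors and fibroblasts, 2 had a P-value under 0.05, *Dcn* (-0.37, P-value = 0.0292, limma) and *Cd34* (-0.26, P-value = 0.0463, limma), both lower (5.07% over all genes), and 0 passed after adjustment. As a list they had no common direction, with 8 lower, 3 higher and a median difference of -0.04 (0.03 over all genes). *Ly6a* (0.25, P-value = 0.0994, limma) and *Dlk1* (0.25, P-value = 0.0843, limma) were among the higher ones. The median r was 0.29 (0.28 without Norm replicate 12), led by *Pdgfra* at 0.54 (0.41). The mean of these genes spanned -0.12 to 0.50 across Norm and -0.02 to 0.59 across Hypox, with Norm replicate 12 at 0.31. The 5 macrophage genes tested had a median r of 0.23 (0.26), from 0.08 for *Cd68* (-0.01) to 0.55 for *C1qc* (0.35), and 0 had a P-value under 0.05. Their mean spanned -0.30 to 0.25 across Norm and -0.48 to 0.23 across Hypox, and *Cd163* was well above background on 0 arrays. The part of nerve, stroma or immune cells in the values of the adipocyte genes was not tested.

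Endothelial genes, among which *Fabp4* is often counted, had a median difference of 0.18, opposite in sign to that of the adipocyte genes. Of 7 tested, 3 were higher in Hypox with a P-value under 0.05 (7.14% over all genes) and 0 passed after adjustment, *Gpihbp1* (0.51, P-value = 0.000319, limma), *Esam* (0.28, P-value = 0.00142, limma) and *Cdh5* (0.38, P-value = 0.00533, limma), and their median r with the mean of the adipocyte genes was 0.01 (0.02 without Norm replicate 12). Red blood cell genes had a median r of -0.16 (-0.37) over 5 genes, 0 of them with a P-value under 0.05. Muscle fiber genes had one of -0.02 (0.16) over 15, of which *Tnni1* (0.61, P-value = 0.000885, limma) and *Mylpf* (0.36, P-value = 0.000908, limma) were higher in Hypox with a P-value under 0.05 (7.14% over all genes), and 0 passed after adjustment. With the slide as a block, *Myh4* (P-value = 0.0033), *Myh1* (P-value = 0.00988) and *Pvalb* (P-value = 0.0157, all limma) of the fast fibers were under the threshold as lower, 3 of 15 (6.16% over all genes). Without a block their P-values were 0.102, 0.0937 and 0.187 (limma). The direction of the muscle fiber list depended on the processing. Its median difference was -0.13, but 0.13 with the processed signals, 0.14 with Cy5 alone and 0.63 with median centring (0.25 over all genes). Of 10 lung genes, 2 passed the filter. *Lamp3* had a difference of 0.14 (P-value = 0.0625, limma), and no difference is given for *Sftpc*, surfactant protein C, which was well above background on 4 of 24 arrays.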

How the data were processed

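The authors deposited the scanner output of the 24 arrays, with the intensity of each spot in both channels and its local background as written by Agilent Feature Extraction 10.7.3.1, and a table of normalized log2 values made in GeneMaths XT. Every array of that table has a median of 6.58, and its scaling and its use of Cy3 are not given in the sources used here. Groups came from the sample labels, slides from the scanner output, and dyes from the descriptions of the samples, because a few Hypox dye labels give other names.

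After 7260 flagged readings and all control spots were dropped, with 0 spots saturated, intensities were background-corrected by normexp (offset 50), turned into log2 Cy5/Cy3 ratios, normalized by loess and averaged over the spots of a probe. Gene names came by accession for 27235 of 55681 probes, by symbol for 3581 and by synonym for 565. Probes over 2 times the background in Cy5, with at most 4 arrays lacking a value, were kept (14233, with a gene 11217), and the probe brightest over both channels stood for each of 9104 genes. Hypox was tested against Norm with limma without a block, adjusted over all genes. Each mouse is 1 array, and the number of arrays limits the precision. Probe positions are those of build mm9 in the scanner output, and promoters those of GRCm38.p6.

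The genes and lists were chosen with earlier results of these data known. Of each list, up to 3 genes with the highest and 2 with the lowest r, and the 2 with the smallest P-value, could be named. Some genes that this rule covers are not reported here. *Pparg*, *Myh1*, *Myh4*, *Pvalb* and the genes named from below the filter, *Fasn*, *Lipe*, *Cebpa*, *Adrb3*, *Ucp1* and *Cd163*, were chosen after their values were seen. Alternatives covered the signal source (processed signals, Cy5 alone, deposited values), median centring, the methods' t-test, the filter, averaging of probes, blocks for slide or replicate number, and leaving out arrays or slides. In simulated data, limma recovered 98.5% of 200 changed genes (a log2 change of 1 among 9104 genes) with 13 false calls. The simulated noise was normal and independent between genes and arrays, without slide effects or an outlying array. The change was also larger than any difference of the adipocyte genes, so that the share recovered does not apply to them. Tests ran in limma 3.58.1 on R 4.3.3, promoter searches and figures in Python 3.11.15 with matplotlib 3.10.9 and pandas 2.3.3.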

Additional observations from a re-analysis of the deposited data

How the results depend on the processing

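The count of the 7 adipocyte genes with a P-value under 0.05 was 3 with all arrays and between 1 and 4 when each array was dropped in turn. It was 1 with the Cy5 channel alone, and 0 with median centring and, of 9 genes, with the deposited values by limma or by the methods' t-test. Shares of all genes beside these counts are given above for all arrays and without Norm replicate 12, and are not given for the other fits. The count after adjustment was 0 under every alternative that was run. The count of genes lower in Hypox was 7 with each array left out in turn and 4 with median centring, where the differences of *Fabp4* (0.43), *Cidec* (0.11) and *Pck1* (0.025) were positive. Median centring moved the median difference of all genes from 0.03 to 0.25, and relative to it *Fabp4* was at 0.18, *Cidec* at -0.15 and *Pck1* at -0.23. On the deposited values *Fabp4* was at 0.27 (limma and the methods' t-test alike) and *Lep*, at 0.002 without a filter, at -0.29. The median r among the 7 genes, 0.65, was between 0.38 and 0.69 with each array left out in turn, 0.42 without slide 6, 0.32 without Norm replicate 12 and Hypox replicate 2 (chosen after seeing the data), 0.43 with the means of each group on each slide removed and without the 2 Norm arrays of slide 6 (likewise), 0.39 as Spearman rho and 0.89 with median centring. With median centring the median r of the 9097 other genes with the mean of the 7 was also 0.89 (0.05 with loess). The value of 0.89 is therefore not particular to the adipocyte genes, and its cause was not tested. The replicate numbers did not pair the arrays: the deviations of same-numbered arrays correlated at between -0.20 and 0.52, with 3 of 12 pairs over 0.1 and 2 of 12 the best match of their own number. With the replicate number as a block, 3 of the 7 were under a P-value of 0.05, 7 of 7 were lower and 0 passed after adjustment, and over all genes the count after adjustment went from 31 to 18. Signal over background limits *Plin1*, *Lep* and *Pck1* most.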
